A study of Mus musculus with 15 samples.

Results

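The 12 retinas of this series that had been through optic nerve crush (ONC) were pooled and set against the 3 intact ones (WT). The 12 injured libraries are 3 each of ONC with no needling (ONC), ONC with acupuncture at point GB20 (ONC-F), at point BL1 (ONC-J) and at the sham point GV16 (ONC-S), and together with the 3 WT libraries they make up all 15 libraries of the series. All mice were wild type C57BL/6, 5 weeks old by the sample labels. The methods describe a crush of the optic nerve on both sides and collection of retinas 2 days later, and needling under anesthesia. WT mice were naive and had no sham operation, so anesthesia, surgery and crush cannot be told apart in any of the comparisons. The libraries are called biological replicates. The methods give 3 mice a group and 3 repeats of the experiment without saying how many mice went into 1 library. So n is a number of libraries, and the p-values measure the spread between libraries of the same group.

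Genes were chosen by their direction in the 4 injured groups. A core gene passed the pooled test, which compares the mean of the 4 injured groups with WT, and had the same sign in each group against WT. A strict core gene was also called in each of the 4 groups on its own. The tests were edgeR quasi-likelihood tests over 19259 genes with enough counts, and a gene was called at a Benjamini-Hochberg adjusted p under 0.05. Because the 4 groups are set against the same 3 WT libraries, they are not 4 independent repeats of the comparison. Levels are given in CPM, that is counts scaled to a common library size, and changes as log2 fold changes of injured over WT with their standard errors (SE).

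Retinal ganglion cells (RGCs) are the output neurons of the retina, and their axons form the optic nerve. After a crush the axon stump signals back to the cell body through stress kinases, which act on transcription factors of the AP-1 and ATF families. One branch, the integrated stress response, slows general translation while the factor ATF4 raises genes for amino acid uptake, amino acid synthesis and the charging of tRNA. Injured RGCs also switch on growth-associated genes, switch off many genes of their mature identity, and in large part die over the following weeks. Glia and microglia of the retina react to the same injury.

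Promoters of 4 strict core genes are shown as examples, and AP-1 factors and ATF4 are themselves among the stress genes measured here. All 4 hold a match to a motif that was searched for, whereas most strict core genes that rose held none. They are RefSeq sequences of the build GRCm38.p6, on the strand of the gene. Capitals mark matches to the AP-1 site TGANTCA or, in Gars, to the C/EBP-ATF composite element TGATGNAAT, read on either strand. Sprr1a, a growth-associated gene of injured neurons, holds a pair of AP-1 matches (chr3:92485832-92486131, minus strand).
Sprr1a: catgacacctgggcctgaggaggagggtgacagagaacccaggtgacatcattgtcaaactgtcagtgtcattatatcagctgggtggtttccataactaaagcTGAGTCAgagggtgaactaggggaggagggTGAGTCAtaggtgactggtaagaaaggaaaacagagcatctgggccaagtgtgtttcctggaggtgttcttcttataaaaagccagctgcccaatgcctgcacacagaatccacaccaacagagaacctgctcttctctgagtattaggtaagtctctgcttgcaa
Mmp12, the macrophage elastase, is shown by the window that holds its AP-1 match (chr9:7347124-7347423, plus strand).
Mmp12: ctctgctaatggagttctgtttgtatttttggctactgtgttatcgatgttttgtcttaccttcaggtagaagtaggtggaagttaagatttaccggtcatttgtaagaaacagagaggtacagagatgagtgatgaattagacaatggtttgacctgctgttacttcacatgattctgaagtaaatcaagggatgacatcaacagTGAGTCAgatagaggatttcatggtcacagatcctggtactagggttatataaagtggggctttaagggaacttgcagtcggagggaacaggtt
Ddit3 encodes CHOP, a factor downstream of ATF4 (chr10:127290543-127290842, plus strand).
Ddit3: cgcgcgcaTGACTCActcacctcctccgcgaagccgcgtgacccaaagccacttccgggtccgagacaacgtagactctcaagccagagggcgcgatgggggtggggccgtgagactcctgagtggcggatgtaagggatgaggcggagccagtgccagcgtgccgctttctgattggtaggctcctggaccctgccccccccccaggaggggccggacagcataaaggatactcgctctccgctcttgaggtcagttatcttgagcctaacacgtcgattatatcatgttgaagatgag
Gars, glycyl-tRNA synthetase, holds the composite element (chr6:55037751-55038050, plus strand).
Gars: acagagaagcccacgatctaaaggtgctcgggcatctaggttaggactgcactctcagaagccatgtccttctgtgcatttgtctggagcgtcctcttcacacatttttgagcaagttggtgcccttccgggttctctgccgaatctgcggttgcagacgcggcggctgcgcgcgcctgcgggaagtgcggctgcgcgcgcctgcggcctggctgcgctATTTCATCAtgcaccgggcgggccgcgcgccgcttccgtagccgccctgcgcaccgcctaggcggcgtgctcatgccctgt

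Of the 118 strict core genes that were higher, 93 had a promoter in this set, and 17 of those (18.3%) held an AP-1 match. Among the 114 that were lower, 86 had one, and 9 (10.5%) held a match, beside 6.41% of the 12639 tested genes with a promoter. The composite element was found for 4 of the 93 (4.3%) and 0 of the 86, beside 0.562% of tested genes. Of the 14 core targets of the integrated stress response with a promoter, 0 held the composite element and 1 (7.14%) an AP-1 match. Among 12 aminoacyl-tRNA synthetases with a promoter, 3 held the composite element and 1 (8.33%) an AP-1 match. The search took these exact letters in a short window at the gene start. An element with other letters or farther away was not counted, so a count of 0 does not show that a gene lacks one. These are counts of letters in a window and say nothing of whether a factor was bound.

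Total counts ran from 14482435 to 26112762 per library. Some libraries stood apart. Lens markers summed to 26.8 to 163 CPM in the injured libraries, to 3170 CPM in WT replicate 1 and to 27.2 and 28.3 CPM in the other WT libraries. ONC replicate 2 had the highest sum of reactive glia genes, 1460 CPM, where the other injured libraries had 604 to 1200 CPM and WT 538 to 572 CPM. ONC-F replicate 3 lay nearest to WT of the 12 injured libraries for 129 of the 232 strict core genes. Its median shift from the WT mean over those genes, signed toward injury, was 0.48 on the scale log2(CPM + 0.1), and that of the other 11 injured libraries was 0.65 to 0.79. Its RGC markers summed to 2490 CPM, above the other injured libraries (2160 to 2280 CPM) and below WT (2850 to 2980 CPM). Without this library the core held 1495 genes and the strict core 262.

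Pooling the 4 injured groups called 1459 genes, or 7.58% of those tested, of which 660 were higher (3.43%) and 799 lower (4.15%). Of these, 1421 were core genes (7.38%), 641 higher (3.33%) and 780 lower (4.05%). The strict core held 232 genes, 118 higher (0.613%) and 114 lower (0.592%). Against WT, ONC alone gave 407 genes (2.11%), with 184 higher (0.955%) and 223 lower (1.16%), and ONC-F gave 387 (2.01%), with 198 higher (1.03%) and 189 lower (0.981%). ONC-J gave 696 (3.61%), with 358 higher (1.86%) and 338 lower (1.76%), and ONC-S gave 4479 (23.3%), with 2226 higher (11.6%) and 2253 lower (11.7%). The median standard error of a log2 fold change over all tested genes was 0.088 in the pooled comparison and 0.111 to 0.112 in a single group. These errors come from the spread within groups, so differences between the 4 injured groups do not enter them. All 12 injured libraries lay outside the 3 WT libraries for 748 of the 1421 core genes and for all 232 strict core genes, and for 911 (4.73%) of all tested genes, 426 above (2.21%) and 485 below (2.52%).

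**Figure D1:**
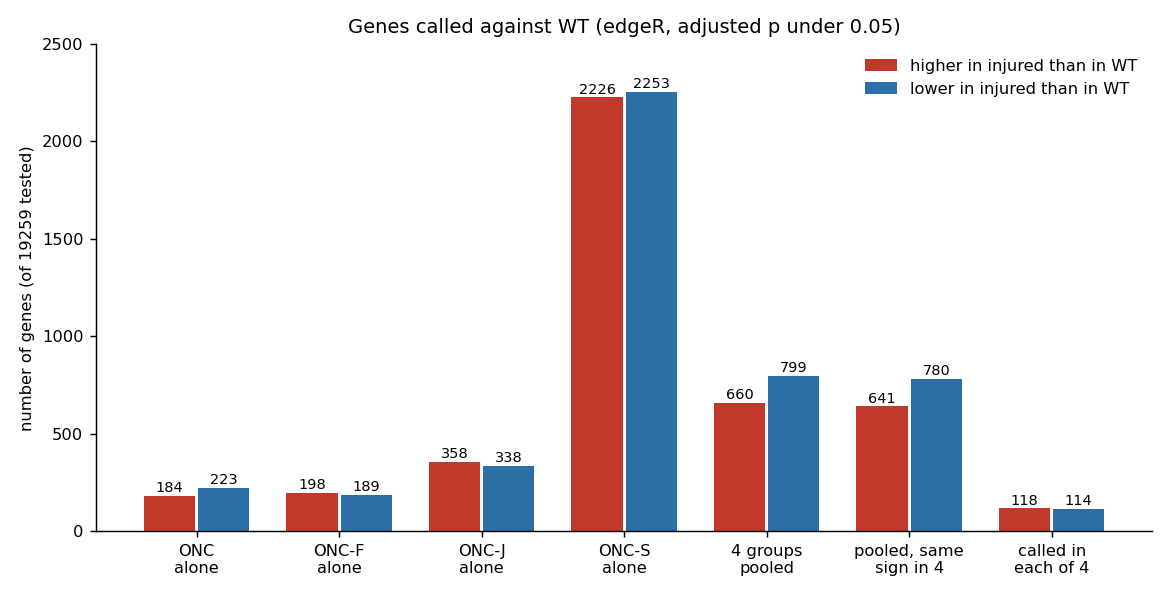
Bars give the number of genes, of 19259 tested, called higher (red) or lower (blue) than in WT by edgeR at an adjusted p under 0.05, for each injured group alone, the 4 groups pooled, the pooled calls of 1 sign in all groups (core) and the genes called in each group (strict core). ONC-S alone had 2226 higher and 2253 lower genes, while the strict core had 118 and 114.

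The larger core leaned on ONC-S. Of the 1421 core genes, 726 were called in only 1 group alone, and for 655 of these that group was ONC-S. The sample numbers of ONC-S stand apart from those of all other groups, WT included, and the methods divide mice into 4 groups. Whether ONC-S was collected or sequenced apart is not stated. In every comparison with ONC-S, needling at GV16 and such a difference cannot be told apart. Without the ONC-S libraries the pool had 780 called and 777 core genes, and 739 of the 1421 were called in it. A strict core without ONC-S asks for a call in only 3 groups, and it held 239 genes, 224 of them among the 232. The core count also depended on each WT library, with 746 core genes without WT replicate 1, 702 without WT replicate 2 and 801 without WT replicate 3. A design with only 2 groups, injured and WT, gave 629 core genes. In that design, differences between the injured groups count as spread. The strict core shrank as well, to 177 genes without WT replicate 1, 176 without WT replicate 2 and 191 without WT replicate 3, and of the 232 genes 172, 164 and 174 were still in it in those fits.

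Strict core genes that rose had a median log2 fold change of 0.93, and those that fell a median of -0.59. A change of at least 1 on the log2 scale was seen for 52 of the 118 and 24 of the 114. Over the whole core, the medians were 0.29 and -0.34. The median size over the strict core was 0.76 for ONC-S, 0.69 for ONC-J, 0.65 for ONC and 0.61 for ONC-F. Within ONC-F, 1 library stood apart. By the median shift from WT on the scale log2(CPM + 0.1), ONC-F replicates 1 and 2 stood at 0.70 and 0.69 and replicate 3 at 0.48. The 3 ONC libraries stood at 0.67, 0.65 and 0.65. Whether replicate 3 sets the low value of ONC-F was not tested. The ONC-S libraries, at 0.75, 0.75 and 0.79, were above the other 9 injured libraries. These shifts are over genes chosen for their calls in the same libraries and were not tested. Among the strict core, 221 genes were protein coding, and 56 had exons overlapped by a gene on the other strand. The strand setting of the counting is not stated, so the reads of such pairs cannot be told apart.

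**Figure D2:**
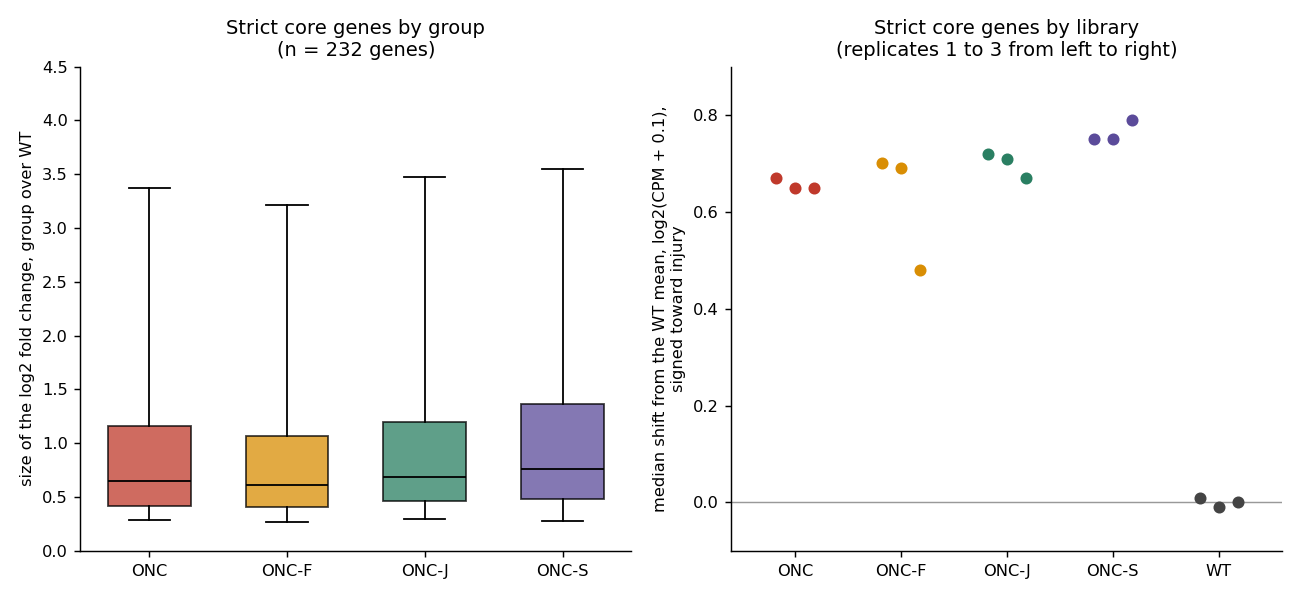
Left, size of the log2 fold change against WT in each injured group over the 232 strict core genes (boxes with median and quartiles, whiskers from the 5th to the 95th percentile). Right, median shift of each library from the WT mean over the same genes, on the scale log2(CPM + 0.1) and signed toward injury (1 point a library). ONC-S libraries stand at 0.75 to 0.79, ONC-F replicate 3 at 0.48 and the other 8 injured libraries at 0.65 to 0.72.

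Sprr1a and Ecel1, of the genes of axon injury and growth, were among the largest rises. Of 24 tested genes of this list, 9 rose and 2 fell (45.8% called, beside 7.58% of all tested genes). Of the 9, 7 were in the strict core. The median log2 fold change was 0.36, where that of all tested genes was -0.007. Sprr1a (chromosome 3, 92483952 to 92485895, mm10) was at 5.28 to 15.2 CPM in the injured libraries, with a median of 11.2 CPM, and had 0 counts in each WT library. Set against a floor of 3 counts over the WT group, its injured mean was at least 229-fold higher. Ecel1, a neprilysin-like endopeptidase, was at 17.6 to 46 CPM (median 34.4 CPM) in the injured libraries and at 0.0996, 0.368 and 0.527 CPM in WT. Its log2 fold change was 6.66 (SE 0.345, adjusted p = 2.44e-10 by edgeR). For both genes the lowest injured library was ONC-F replicate 3, and it was still far above every WT library.

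Receptors and signals of the same list rose by less. Tnfrsf12a, the receptor of the cytokine TWEAK, was at 19.3 to 37.4 CPM (median 27.5 CPM) after injury and at 4.83, 5.85 and 4.69 CPM in WT, which put the log2 fold change at 2.44 (SE 0.134, adjusted p = 5.7e-10 by edgeR). Adcyap1, which encodes the neuropeptide PACAP, rose by 1.90 and Plat, tissue plasminogen activator, by 0.98. Stmn4, a stathmin that binds tubulin, was at 47.7 to 66.8 CPM (median 55.7 CPM) in injured libraries and at 21.6, 21.2 and 26.5 CPM in WT. Its change was smallest in ONC-S, at 1.07, beside 1.26 in ONC and up to 1.47 in ONC-J. Gap43, a growth cone protein, rose by 0.46. The 2 genes that fell were Nrn1, neuritin, at -0.43, and Mapk10, the neuronal stress kinase JNK3, at -0.26. Gap43, Nrn1 and Mapk10 were picked after their values were seen, as were, further on, Atf4, Adm2, Lad1, Psph, Chrna3 and the carriers Slc7a1, Slc7a3 and Slc7a5. So were Mcl1, Pmaip1, Bid, Bad, Bmf, Bik, Bax, Dpysl3, Nav1, Nqo1, Gclc, Gclm, Txnrd1 and Prdx1.

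**Figure D3:**
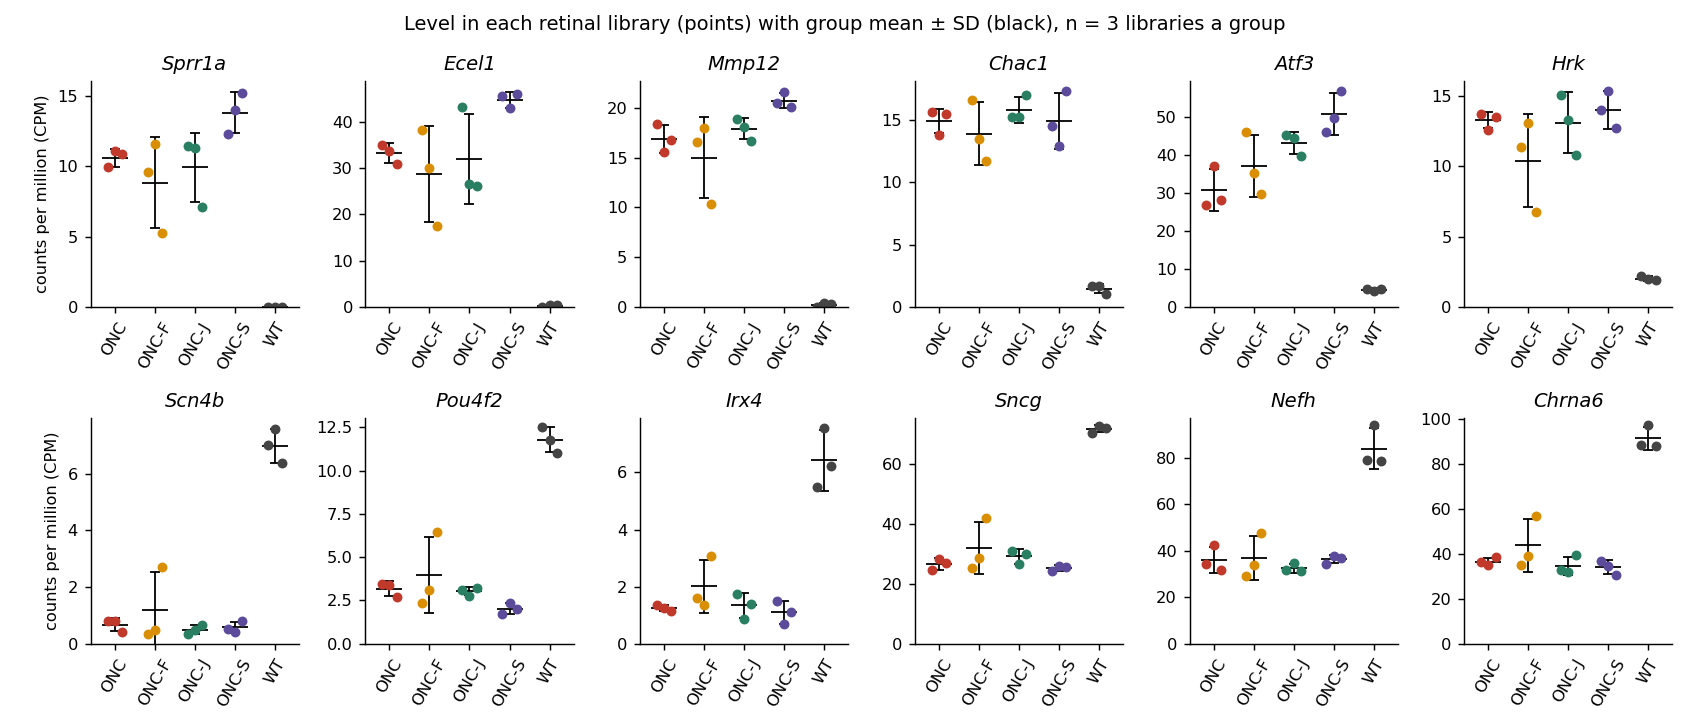
CPM of 12 strict core genes in each library (points, 3 a group), with group means and SDs in black (lower bars stop at 0). Injured groups stand left of WT. In the upper row all 12 injured libraries lie above WT and in the lower row all lie below, and in 11 of the 12 panels the injured library nearest to WT is ONC-F replicate 3.

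Among transcription factors of the stress and growth response, no called gene was lower. Of 23 tested, 14 rose and 0 fell (60.9% called, beside 7.58% of all tested genes), 7 in the strict core. The median log2 fold change was 0.74. Atf3, a partner of AP-1 that is induced in many injured neurons, was at 26.9 to 56.8 CPM (median 42.1 CPM) in the injured libraries and at 4.78, 4.17 and 4.75 CPM in WT (log2 fold change 3.12, SE 0.142, adjusted p = 5.95e-11 by edgeR). Sox11, a factor of neuronal development, was at 9.72 to 23 CPM (median 18.7 CPM) in injured libraries and at 2.84, 2.25 and 3.11 CPM in WT. Its log2 fold change was 2.73 (SE 0.188). Jun, the core subunit of AP-1, was at 69.1 to 89.8 CPM (median 76.7 CPM) in injured libraries and already at 42.9, 44.4 and 50.6 CPM in WT, a rise of 0.74. Creb5, Arid5a and Atf5 rose by 1.33, 1.24 and 1.22. The exons of Atf5 and Jun are overlapped on the other strand, by Il4i1 and Nup62 and by Junos. Stat3, which carries cytokine signals, rose by 0.68 and was called in 2 groups alone, and its exons are overlapped by Stat5a.

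The integrated stress response had the highest share of called genes among the stress lists. Of 30 tested genes, 21 rose and 0 fell (70% called, beside 7.58% of all tested genes), and 13 of the 21 were in the strict core. Among the 20 target genes the count was 16 and the median log2 fold change 0.91, and among the 10 kinases and regulators it was 5 and 0.33. Chac1, which degrades glutathione, was at 11.7 to 17.3 CPM (median 15.2 CPM) in injured retinas and at 1.69, 1.68 and 1.05 CPM in WT. Its log2 fold change of 3.31 (SE 0.156, adjusted p = 7.15e-11 by edgeR) had group values of 3.32 in both ONC and ONC-S, 3.21 in ONC-F and 3.40 in ONC-J, so it was nearly the same size in each group. Ddit3 was at 58.2 to 85.4 CPM (median 69.6 CPM) in injured libraries and at 36.3, 38.4 and 36.8 CPM in WT, a rise of 0.94. Ddit3 overlaps Mars, a tRNA synthetase gene on the other strand. Atf4 itself was abundant, at 232 to 360 CPM (median 271 CPM) in injured libraries and at 207, 230 and 213 CPM in WT, and rose by 0.40. Adm2, a peptide hormone gene induced by ATF4, was low, at 0.226 to 1.11 CPM (median 0.654 CPM) in injured libraries and at 0, 0.0409 and 0 CPM in WT, yet every injured library lay above WT.

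Several enzymes of serine and asparagine synthesis rose. Phgdh, the first enzyme of serine synthesis, was at 15.5 to 25.7 CPM (median 19.9 CPM) after injury and at 6.48, 3.77 and 2.90 CPM in WT (log2 fold change 2.22, SE 0.16). Psat1, the next enzyme of that route, rose by 0.73 and Asns, asparagine synthetase, by 0.93. Psph, the last enzyme of serine synthesis, was not called, at 20.3 ± 0.926 CPM in injured libraries (SD, n = 12) and 19.5 ± 1.25 CPM in WT (SD, n = 3), with an adjusted p of 0.557 by edgeR, and it is overlapped by Cct6a on the other strand. Sesn2, a stress sensor upstream of mTORC1, rose by 1.0. Of the amino acid carriers in the list, Slc7a1, for cationic amino acids, rose by 1.20, Slc7a5, for large neutral ones, by 1.05 and Slc7a3, also for cationic ones, by 0.90. Slc7a11, the cystine carrier, rose by 0.73, but its injured libraries (7.75 to 14.7 CPM) overlapped WT (5.08, 3.64 and 8.23 CPM), and its adjusted p was 0.0851 without WT replicate 1 and 0.15 without WT replicate 2.

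Many charging enzymes of tRNA rose, by small amounts. Of 20 cytosolic aminoacyl-tRNA synthetases, 13 rose and 0 fell (65% called, beside 7.58% of all tested genes), 5 in the strict core. The median log2 fold change was 0.28, with 0.37 in ONC-S, 0.16 in ONC, 0.27 in ONC-F and 0.25 in ONC-J. Without ONC-S 10 rose, with 11 in the fit without WT replicate 1 and 9 in the 2-group design. Sars was at 192 to 237 CPM (median 211 CPM) in the injured libraries and at 152, 157 and 159 CPM in WT, which put the log2 fold change at 0.45 (SE 0.052, adjusted p = 1e-05 by edgeR) with 0.43 to 0.47 in the 4 groups. Nars rose by 0.44. Gars was at 88.9 to 142 CPM (median 110 CPM) in injured libraries and at 73.7, 72.1 and 69.7 CPM in WT, and Yars at 85.5 to 139 CPM (median 106 CPM) in injured libraries and at 67.7, 69.4 and 71.3 CPM in WT. They rose by 0.64 and 0.61, with the largest change in ONC-S, and Yars is overlapped by C77080 on the other strand. For 9 of the 20 genes all injured libraries lay above WT, beside 2.21% of all tested genes.

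Some cell death genes changed. Of 27 genes of apoptosis and p53 targets, 7 rose and 1 fell, 2 in the strict core, so that 29.6% were called, beside 7.58% of all tested genes. Cdkn1a, the cell cycle inhibitor p21, was at 11.1 to 19.9 CPM (median 14.1 CPM) in injured libraries and at 3.34, 1.43 and 1.42 CPM in WT, which put the log2 fold change at 2.80 (SE 0.219, adjusted p = 5.62e-08 by edgeR). Hrk, a BH3-only activator of neuronal apoptosis, was at 6.74 to 15.4 CPM (median 13.2 CPM) in injured libraries and at 2.19, 2.01 and 1.90 CPM in WT (2.63, SE 0.181). The other BH3-only genes that rose, Bcl2l11 (Bim) and Bbc3 (Puma), did so by 0.41 and 0.78. Pmaip1, Bid, Bad, Bmf and Bik were not called. Mcl1, an anti-apoptotic member of the BCL2 family, also rose, with 27.5 FPKM (the authors' length-scaled levels) in injured libraries and 24.0 FPKM in WT. The 1 gene that fell was Bax, an effector of apoptosis, with 20.2 FPKM in injured libraries and 22.9 FPKM in WT. Mdm2, the p53 ligase, rose by 0.24, but its adjusted p was 0.0559 and 0.0565 without WT replicates 1 and 3. The exons of Cdkn1a are overlapped by AC167363.2 on the other strand.

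**Figure D4:**
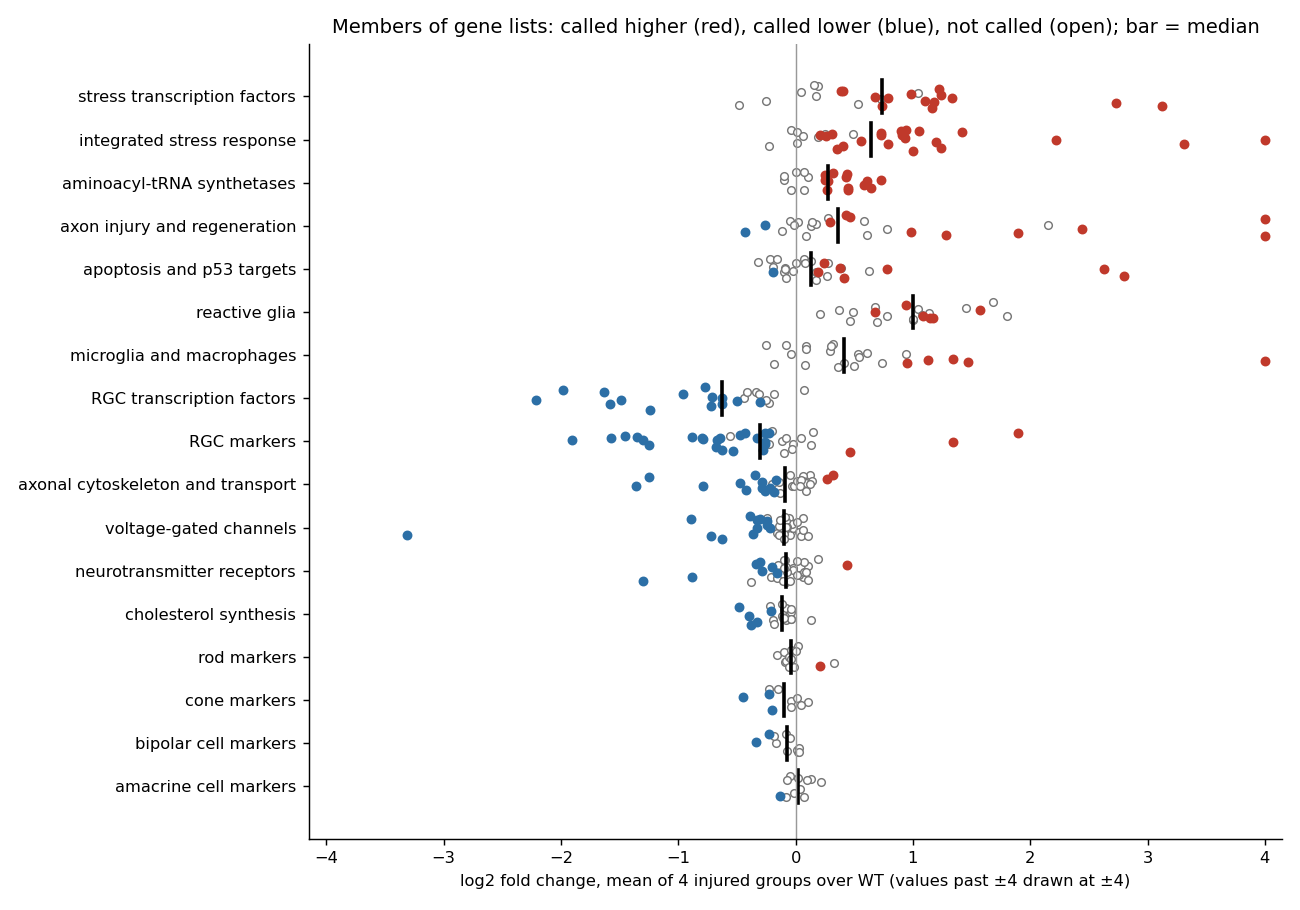
Each point is 1 tested gene of a list, placed by its pooled log2 fold change (values past 4 drawn at 4), filled red if called higher, blue if called lower and open if not called, and bars are list medians. The stress lists lie to the right, with medians of 0.74 and 0.64, and the RGC transcription factors to the left, with a median of -0.63.

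On the falling side, RGC transcription factors stood out. Of 22 tested, 14 fell and 0 rose (63.6% called, beside 7.58% of all tested genes), 7 in the strict core. The median log2 fold change was -0.63. Pou4f2 (Brn3b), which specifies RGCs, was at 1.74 to 6.48 CPM (median 2.93 CPM) in the injured libraries and at 12.5, 11.8 and 11 CPM in WT, which put the log2 fold change at -1.98 (SE 0.165, adjusted p = 1.28e-07 by edgeR). Irx4, an Iroquois factor, was at 0.706 to 3.08 CPM (median 1.35 CPM) in injured libraries and at 5.48, 7.57 and 6.22 CPM in WT (-2.21, SE 0.197). Isl2, a LIM factor of RGC subsets, had a log2 fold change of -1.49 and Irx2 of -1.58. Pou4f1 (Brn3a) was at 13.6 to 21.3 CPM (median 15.8 CPM) in injured libraries and at 31.3, 32.3 and 31.2 CPM in WT, which put the log2 fold change at -0.96, and its groups ranged only from -1.07 to -0.89. Irx6 had -0.63. In a bulk sample, fewer RGCs and less RNA per RGC cannot be told apart, here and in the lists that follow.

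Most RGC markers fell. Of 36 tested, 22 fell and 3 rose (69.4% called, beside 7.58% of all tested genes), with 14 and 3 in the strict core. The median log2 fold change was -0.31. All but 1 of the 22, Penk, were core genes. The 20 markers of all RGCs had a median of -0.45, and the 16 of subtypes -0.16. Sncg, gamma-synuclein, was at 24.2 to 42 CPM (median 26.8 CPM) after injury and at 70.6, 73 and 72.1 CPM in WT, which put the log2 fold change at -1.35 (SE 0.085, adjusted p = 3.53e-09 by edgeR). Its highest injured library was ONC-F replicate 3. Calb2, calretinin, which RGCs share with amacrine cells, was at 149 to 192 CPM (median 155 CPM) in injured libraries and at 244, 255 and 253 CPM in WT (-0.67, SE 0.046). Htr1b, a serotonin receptor, and Pvalb, parvalbumin, had the largest decreases among the markers, -1.91 and -1.57. The 3 markers that rose were Adcyap1, Gap43 and Spp1 (osteopontin), and each of them is also held by another list, of axon injury or of microglia. The exons of Htr1b are overlapped by D430036J16Rik on the other strand.

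The axon's own machinery fell in part. Of 30 genes of the axonal cytoskeleton and transport, 12 fell and 2 rose (46.7% called, beside 7.58% of all tested genes). Of the 12, 7 were in the strict core, and the list median was only -0.09. Nefh, the heavy neurofilament, was at 29 to 47.5 CPM (median 34.3 CPM) in injured libraries and at 79.1, 93.8 and 78.7 CPM in WT (-1.25, SE 0.093, adjusted p = 3.09e-08 by edgeR). Nefl, the light neurofilament, had -0.47, and it shares exon positions with Nefm on the other strand. Tppp3, a tubulin-binding protein, had -1.36, the neuronal tubulin Tubb3 -0.79, alpha-internexin (Ina) -0.42 and Tubb2a -0.35. The 2 genes that rose were Dpysl3, with 57.1 FPKM in injured libraries and 45.2 FPKM in WT, and Nav1, with 8.27 and 6.79 FPKM. Of the 10 motor genes 2 fell (20%), and the median of the 10 was 0.05. Without WT replicate 1, 9 genes of the list fell and 1 rose.

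Several sodium and potassium channels fell, and no calcium channel was called. Of 36 voltage-gated channel genes 12 fell and 0 rose (33.3% called, beside 7.58% of all tested genes), 6 in the strict core. The 12 were 5 of 8 sodium, 7 of 16 potassium and 0 of 12 calcium channel genes. Of the calcium channel genes, 1 had an unadjusted p under 0.05 and DESeq2 called 0. Scn4b, a sodium channel beta subunit, was at 0.339 to 2.72 CPM (median 0.505 CPM) in the injured libraries and at 7.02, 7.57 and 6.38 CPM in WT, which put the log2 fold change at -3.31 (SE 0.292, adjusted p = 2.6e-07 by edgeR). The 2.72 CPM were those of ONC-F replicate 3, and the other 11 injured libraries were lower. Scn1a, a pore-forming subunit, was at 43.9 to 74.2 CPM (median 56.8 CPM) in injured libraries and at 90.7, 92 and 98.3 CPM in WT (-0.72). Kcnd2, of A-type potassium currents, had -0.89, its partner Kcnip4 -0.63, Scn2b -0.39 and Kcnc2 -0.36.

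Among receptors for transmitters, the changes in the strict core were in nicotinic subunits. Of 32 receptor genes 7 fell and 1 rose (25% called, beside 7.58% of all tested genes). In the fit without ONC-S 4 fell and 1 rose. Only Chrna6 and Chrnb3 were in the strict core. Chrna6 was at 30.7 to 57.1 CPM (median 35.7 CPM) in injured libraries and at 88.8, 97.4 and 88.3 CPM in WT, which put the log2 fold change at -1.30 (SE 0.089). Chrnb3 was at 36.4 to 54.9 CPM (median 44.3 CPM) in injured libraries and at 79.3, 89 and 77.5 CPM in WT (-0.88). Chrnb2 fell by 0.20, with -0.21 to -0.19 in the 4 groups, and had an adjusted p of 0.0521 without WT replicate 2. The gene that rose was Chrna3, by 0.44, with an adjusted p of 0.0701 without WT replicate 3. The glutamate receptors Gria2 and Grm6 had adjusted p of 0.0913 and 0.0917 without ONC-S, and 0 of 12 glutamate receptors were called in that fit.

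Genes of reactive glia varied widely between injured libraries. Of 21 tested genes of reactive glia, 6 rose (28.6%, beside 3.43% of all tested genes) and 0 fell. None of the 6 was in the strict core, although the list median of 1.0 was the highest of all lists. Gfap, the intermediate filament of reactive glia, was at 29.7 to 142 CPM (median 56.8 CPM) in the injured libraries and at 23.8, 31 and 29.9 CPM in WT, so the groups overlapped. Its log2 fold change was 1.17 (SE 0.326, adjusted p = 0.0331 by edgeR), and its adjusted p was 0.153, 0.108 and 0.104 without WT replicates 1, 2 and 3. Fgf2, a survival factor, and Serpina3n, an acute-phase protease inhibitor, rose by 1.09 and 1.57 with the same loss of the call without any 1 WT library (adjusted p of 0.0991 to 0.137). Fgf2 is overlapped by Nudt6 on the other strand. Ednrb, the endothelin receptor of reactive glia, was steadier, at 5.85 to 11.6 CPM (median 8.54 CPM) in injured libraries and at 5.58, 3.77 and 4.59 CPM in WT (0.94, SE 0.142). Without ONC replicate 2, the highest of the injured libraries in the summed level of this list, 7 of its genes rose, and without WT replicate 1 only 3 did. Markers of resting Mueller glia and astrocytes gave 1 call of 12 (8.33%, near the 7.58% of all tested genes). It was Kcnj10, a potassium channel, at 0.31, with an adjusted p of 0.0535 and 0.107 without WT replicates 1 and 2.

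Some markers of microglial activation rose, while those of microglial identity were not called. Of the 12 activation genes 5 rose (41.7%, beside 3.43% of all tested genes), 4 of them in the strict core. Of the 11 identity genes 0 were called by edgeR. The medians of activation and identity genes were 0.55 and 0.41. Among the identity genes 4 had an unadjusted p under 0.05, and DESeq2 called 1. Mmp12 was at 10.3 to 21.6 CPM (median 18 CPM) in injured libraries and at 0.0498, 0.368 and 0.264 CPM in WT, which put the log2 fold change at 6.18 (SE 0.259, adjusted p = 2.7e-11 by edgeR). Its exons are overlapped by Mmp1b on the other strand. Cd68, a lysosomal protein of phagocytes, was at 3.55 to 6.90 CPM (median 4.53 CPM) in injured libraries and at 2.14, 2.37 and 1.90 CPM in WT (1.13). Spp1 was at 18.1 to 53.8 CPM (median 21.8 CPM) in injured libraries and at 9.61, 9.49 and 9.33 CPM in WT (1.34), and Gpnmb, a lysosomal glycoprotein, rose by 0.95. Lgals3, galectin-3, was called at an adjusted p of 0.0459, which was 0.114 without ONC-S, 0.248 without WT replicate 2 and 0.176 without WT replicate 3. The summed level of all 23 genes was 776 to 915 CPM in injured libraries and 763 to 864 CPM in WT, so the ranges overlapped.

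Complement had 2 called genes, and both calls rested on the full set of WT libraries. Of 15 complement genes 2 rose (13.3%, beside 3.43% of all tested genes), C1qb by 0.59 and C4b by 0.67. Both were lost without any 1 of the WT libraries (adjusted p of 0.0842 to 0.204). C4b has a near-identical copy, C4a, so its reads may be split between them. Of 18 interferon and antigen presentation genes 0 were called by edgeR, with H2-D1 nearest at an adjusted p of 0.0851, and 1 was called without ONC-S, Gbp2, at 0.0119. In that list 7 genes had an unadjusted p under 0.05, and DESeq2 called 1. Of 16 cell cycle genes 0 were called by edgeR, 1 had an unadjusted p under 0.05 and DESeq2 called 1. Mki67, a marker of dividing cells, had 0.05 to 3.28 CPM (median 0.378 CPM) in injured libraries, with the highest level in ONC replicate 2, and 0.299, 0.0818 and 0.0527 CPM in WT.

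Calls were more frequent among adhesion genes than among matrix genes, a difference that was not tested. Of 17 genes of cell adhesion and its link to actin 9 rose (52.9%), 4 in the strict core. Of 18 matrix genes 0 rose and 1 fell (5.56% called), where 7.58% of all tested genes were called. Itga5, the fibronectin receptor subunit, was at 5.38 to 8.43 CPM (median 6.79 CPM) after injury and at 3.64, 2.58 and 3.16 CPM in WT (1.12, SE 0.133, adjusted p = 1.49e-05 by edgeR). Tes and Zyx, which sit at focal adhesions, rose by 0.94 and 0.53 and Jup, plakoglobin, by 0.44. Tes and Zyx are overlapped on the other strand by Gm4876 and Epha1. Lad1, ladinin, had the largest rise, 2.21, but lay at 2.64 to 24.6 CPM in injured libraries and at 1.84, 2.95 and 2.16 CPM in WT, and its call was lost without any 1 of the WT libraries (adjusted p of 0.06 to 0.0836). The matrix gene that fell was Hapln1, a link protein of perineuronal nets, at 0.138 to 1.46 CPM (median 0.405 CPM) in injured libraries and at 2.54, 1.60 and 1.74 CPM in WT (-1.92).

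The cholesterol and antioxidant lists held 1 strict core gene each. Of 20 genes of cholesterol synthesis 5 fell and 0 rose (25% called, beside 7.58% of all tested genes). The median of these 20 was -0.11, and 3 fell without WT replicate 1. Srxn1, sulfiredoxin of the NRF2 program, was at 103 to 154 CPM (median 123 CPM) in injured libraries and at 55.6, 55.6 and 59 CPM in WT, which put the log2 fold change at 1.15 (SE 0.064, adjusted p = 6.29e-10 by edgeR). Hmox1, heme oxygenase 1, rose by 2.10 with a wide range, 6.70 to 36.2 CPM (median 8.58 CPM) in injured libraries and 2.34, 2.25 and 2.79 CPM in WT. Its highest library was ONC replicate 2. Of 18 antioxidant and metal genes, 4 rose and 2 fell (33.3% called, beside 7.58% of all tested genes), and the list median was 0.09. Other genes of the NRF2 program in this list, Nqo1, Gclc, Gclm, Txnrd1 and Prdx1, were not called.

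Among chaperones, 3 of 18 rose (16.7%, beside 3.43% of all tested genes). Herpud1, which serves the degradation of misfolded proteins at the endoplasmic reticulum, was at 71.3 to 107 CPM (median 87 CPM) in the injured libraries and at 62.3, 59.7 and 57.8 CPM in WT (0.56), and Hspb1 and Hspb8, small heat shock proteins, rose by 0.65 and 0.52. The call of Hspb8 was lost without each of the WT libraries (adjusted p of 0.0708 to 0.221). Hsp90b1, a chaperone of the endoplasmic reticulum, was at 238 to 310 CPM (median 265 CPM) in injured libraries and at 308, 360 and 260 CPM in WT, with an adjusted p of 0.0905.

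Several of the largest pooled changes fell outside the lists. Cox6a2, a heart and muscle subunit of cytochrome oxidase, was at 1.02 to 2.08 CPM (median 1.66 CPM) in injured libraries and at 0, 0 and 0.158 CPM in WT, which put the log2 fold change at 4.95 (SE 0.49). Tmc1, known as the mechanotransduction channel of inner ear hair cells, was at 1.11 to 1.92 CPM (median 1.5 CPM) in injured libraries and at 0.0498, 0 and 0.316 CPM in WT (3.61), and Cyb5r2, a cytochrome b5 reductase, at 1.05 to 2.23 CPM (median 1.33 CPM) in injured libraries and at 0.0498, 0.0818 and 0.211 CPM in WT (3.60). Each was low in level. That none overlapped WT was a condition for naming these genes, so it adds nothing to their calls. Colec10, a collectin, and Sprr2g had 0 counts in each WT library, and their injured means, 0.795 ± 0.306 and 0.538 ± 0.215 CPM (SD, n = 12), were at least 16.8-fold and 11.4-fold higher than the same floor. Sprr2g belongs to a family of close copies, so its reads may be shared with them. The exons of Cox6a2 and Cyb5r2 are overlapped on the other strand by Itgad and Ppfibp2.

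Among the largest decreases outside the lists, Ppp1r1c, an inhibitor of protein phosphatase 1, was at 0 to 0.575 CPM (median 0.122 CPM) in injured libraries and at 1.15, 1.19 and 1.48 CPM in WT (-3.10, SE 0.386). Ctxn3, a cortexin, was at 1.23 to 3.61 CPM (median 1.86 CPM) in injured libraries and at 7.62, 6.83 and 5.80 CPM in WT (-1.77). The G protein-coupled receptors Prokr1 and Gpr101 had -2.30 and -2.15, at 0 to 0.736 CPM in injured libraries and 0.778 to 1.31 CPM in WT, and Kctd19, which is overlapped by Plekhg4 on the other strand, had -1.62. Prokr1 was called in 1 group alone and was lost without WT replicate 1 (adjusted p = 0.0592).

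Pooling added few genes that no group showed alone. There were 50 such core genes, 16 higher and 34 lower. Of those named by size, Kif14, a mitotic kinesin, was at 3.95 to 8.89 CPM (median 5.64 CPM) in injured libraries and at 3.74, 3.44 and 4.01 CPM in WT (0.66, adjusted p = 0.0469 by edgeR). Nln, neurolysin, rose by 0.42, Rhoc, a small GTPase, by 0.42 and Scara3, a scavenger receptor family member, by 0.27. Kank4 was at 2.09 to 4.06 CPM (median 3.08 CPM) in injured libraries and at 5.28, 4.79 and 4.32 CPM in WT (-0.65, adjusted p = 0.0174), and Trpc6, a cation channel, had -0.48. These calls were near the threshold: without WT replicate 2 the adjusted p was 0.206 for Kif14, 0.123 for Nln, 0.255 for Rhoc, 0.157 for Scara3, 0.0836 for Kank4 and 0.345 for Trpc6. Without WT replicate 1 it was 0.117 to 0.182 for these genes except Nln (0.0401), and without WT replicate 3 it was 0.11 for Kif14 and 0.217 for Nln. Fgfr3, R3hdml, Bfsp1 and Hbb-bs were also in this set, and their adjusted p without WT replicate 1 was 0.842 to 0.986.

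Markers of lens and blood moved with WT replicate 1. Of 14 lens markers 12 were called lower, with a list median of -4.97, and 0 were called without that library, where the median was 1.84. Cryaa was at 0.176 to 45.1 CPM (median 1.87 CPM) in injured libraries and at 1310, 2.54 and 0.738 CPM in WT. Of 7 blood genes 2 were called lower and 0 without that library. These genes count among the 780 core genes that were lower, and 0 of them are in the strict core.

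Among markers of the other retinal cell types, most calls were lost without ONC-S. Of 13 rod markers 1 rose (7.69%), Sag by 0.21, of 10 cone markers 3 fell (30%), and of 11 bipolar markers 2 fell (18.2%). Of 11 amacrine markers 1 fell (9.09%), and of 14 vascular markers 1 rose and 1 fell (14.3% called). Of all tested genes 7.58% were called, so the rod and amacrine shares were near that of all genes. Of 10 pigment epithelium markers 0 were called by edgeR, 1 at an unadjusted p under 0.05 and 0 by DESeq2. The call of Sag, rod arrestin, was lost without any 1 of the WT libraries (adjusted p of 0.0618 to 0.0702). Without ONC-S the count was 1 cone marker and 0 in the rod, bipolar, amacrine and vascular lists. Calls over all tested genes also fell in that fit, from 1459 to 780. Arr3, cone arrestin, the cone marker that stayed, was at 216 to 406 CPM (median 357 CPM) in injured libraries and at 445, 464 and 439 CPM in WT (-0.45, SE 0.061), with -0.94 in ONC-S and -0.35 to -0.23 in the other groups. Calb1, a horizontal cell marker, had -0.22 (adjusted p = 0.016, and 0.222 and 0.0726 without WT replicates 2 and 3).

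The size of the change differed among the 4 injured groups for 446 core genes (31.4%) and 45 strict core genes (19.4%), where 2565 (13.3%) of all tested genes did. Since ONC-S entered the calls that chose these genes, nothing is read from the difference between those shares. In 40 of the 45 the largest change was in ONC-S. Without ONC-S, 7 genes of the whole table differed among the 3 groups that remained, and none of them was a core gene. Slc7a1 was at 33.5 to 82.6 CPM (median 45.3 CPM) in the injured libraries and at 21.9, 22.5 and 19.7 CPM in WT, with log2 fold changes of 0.70 in ONC, 1.87 in ONC-S and, between them, 0.96 in ONC-F and 1.26 in ONC-J (adjusted p among groups = 0.000166 by edgeR). ONC and ONC-S were also the ends for Slc7a5 (0.70 and 1.46), Cars (0.35 and 1.27) and Atf3 (2.75 and 3.48), and Cars is overlapped by Gm15580 on the other strand. Whether the ONC, ONC-F and ONC-J values of these genes differ is not shown: without ONC-S the adjusted p among groups was 0.527 for Slc7a1 and 0.538 for Slc7a5.

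**Figure D5:**
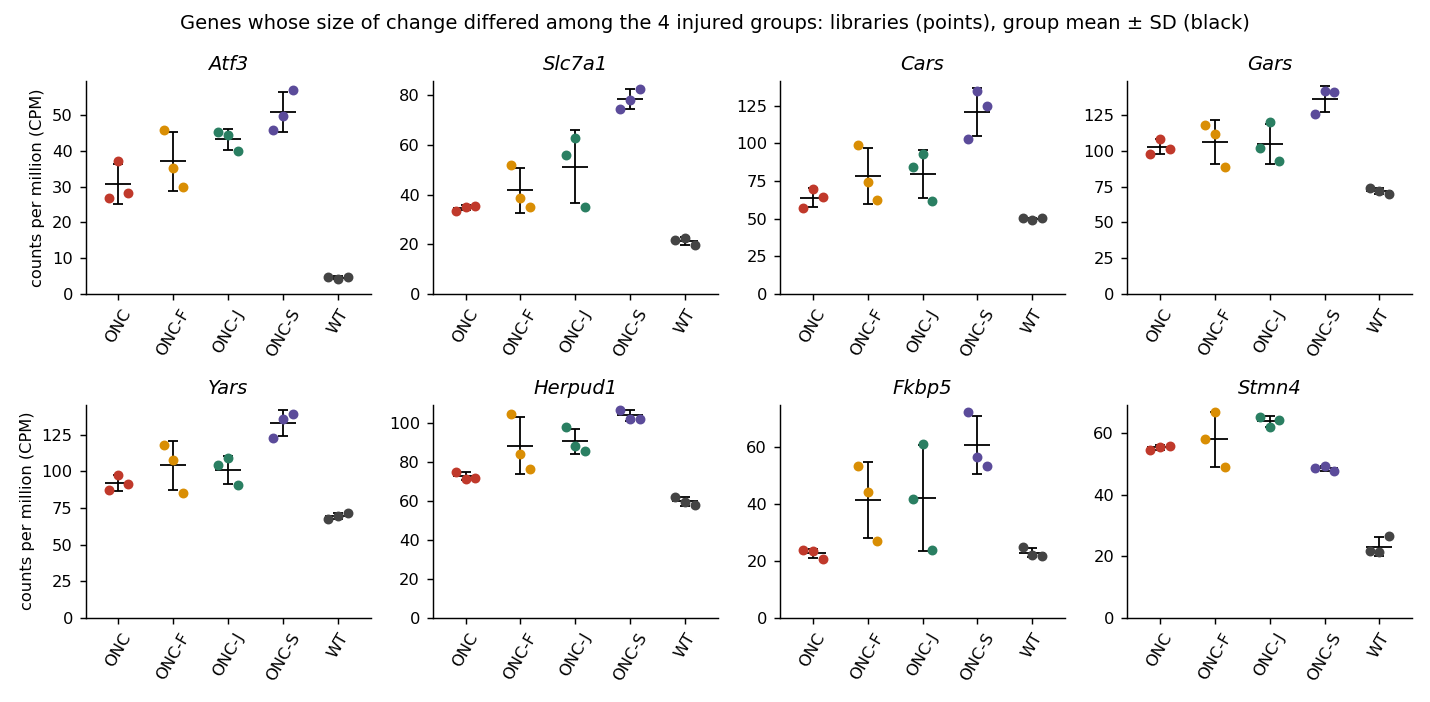
CPM in each library (points) with group mean and SD (black) for 8 genes whose change differed among the injured groups, which stand left of WT. Slc7a1, Cars, Gars and Yars have their highest libraries in ONC-S, Fkbp5 lies at WT level in ONC and above it in all but 1 library of the needled groups, and Stmn4 has its smallest change in ONC-S.

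Some glucocorticoid-responsive genes rose. Of 11 tested, 3 rose, Cdkn1a, Fkbp5 and Per1 (27.3%, beside 3.43% of all tested genes). Cdkn1a and Per1 were core genes and Fkbp5 was not, and only Cdkn1a was in the strict core. Fkbp5, a cochaperone of the glucocorticoid receptor, was at 20.6 to 72.2 CPM (median 42.8 CPM) in the injured libraries and at 24.7, 22.1 and 21.7 CPM in WT. Its log2 fold change was -0.02 in ONC, 1.41 in ONC-S and 0.85 and 0.89 in ONC-F and ONC-J, so it is called in the pool (0.78, adjusted p = 0.0209) but is not a core gene, and its adjusted p was 0.162 without ONC-S and 0.0598 to 0.106 without any 1 of the WT libraries. Per1, a clock gene, rose by 0.32, with an adjusted p of 0.0533 to 0.331 in the same fits. Of the 38 called genes that were not core, 27 had the opposite sign in ONC, 8 in ONC-J and 3 in ONC-F. Slc6a13, a GABA transporter, was one of them, with 0.28 in ONC-J and -0.78 (ONC), -0.41 (ONC-F) and -1.49 (ONC-S) in the others.

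At the edge of the call, Rtf2 (0.17) and Arhgap6 (-0.43) were the last genes inside the threshold, and Kctd17 (-0.17, adjusted p = 0.0501) and Ptcd1 (0.18, adjusted p = 0.0503) the first outside it. In all, 4112 genes (21.4%) had an unadjusted p under 0.05, 1886 higher (9.79%) and 2226 lower (11.6%).

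Levels per transcript length were taken from the authors' FPKM. On that scale, the strict core genes that rose had a median of 6.72 in the injured libraries and 3.47 in WT. The strict core genes that fell had a median of 5.23 in the injured libraries and 8.53 in WT. The median of all tested genes was 4.14. Abundant strict core genes were Scg2, a secretogranin, with 160 FPKM in injured libraries and 133 FPKM in WT, and Calb2, with 90.3 FPKM in injured libraries and 143 FPKM in WT (Scg2 was picked after its values were seen).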

How the data were processed

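RNA of mouse retinas was sequenced in 15 libraries, 3 each of ONC, ONC-F, ONC-J, ONC-S and WT. The authors aligned reads with HISAT2 2.0.5 to mm10, counted them with featureCounts and deposited whole-number counts per gene and, in a second table, FPKM values, which are scaled for gene length and depth. Strand and multi-mapping options of the counting are not given in the sources used here.

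The counts were fitted in edgeR 4.0.16 (R 4.3.3) with TMM scaling, 5 groups and all 15 libraries, after filterByExpr (minimum count 10, minimum total 15), which kept 19259 of 54532 genes. The pooled contrast was the mean of the 4 injured groups minus WT, by the quasi-likelihood test with Benjamini-Hochberg adjustment at 0.05. Differences among injured groups used an F test on the same fit. Standard errors are the log2 fold change over the root of its F value. CPM use TMM library sizes, and FPKM medians are of the deposited values. Scripts were tested on simulated data. DESeq2 1.42.0, limma-voom (limma 3.58.1), other filters and scalings, FPKM on a log2 scale, left-out libraries and a replicate block were alternatives.

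Genes, lists and tests were chosen with earlier results of these data known. Named genes were the 15 largest pooled increases and 15 largest decreases among core genes of at least 1 CPM whose injured and WT libraries did not overlap, up to 6 genes of smallest p per list, the 8 largest per direction among core genes called in no group alone, the 6 core genes of smallest p among injured groups, the 4 called genes of smallest p that are not core, the genes nearest the threshold, and core genes with 0 WT counts and at least 0.5 CPM after injury. Unnamed gene models and some of these genes were counted only, and some results are not reported here. Promoters are RefSeq windows of GRCm38.p6, matched by symbol.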

Additional observations from a re-analysis of the deposited data

Results flagged for a closer look

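The change against WT differed among the 4 injured groups for 23 of the genes named in the report. The test was edgeR's F test of that difference, with adjustment over all tested genes. The count leaves out Mcl1, Pmaip1, Bid, Bad, Bmf, Bik, Bax, Dpysl3, Nav1, Nqo1, Gclc, Gclm, Txnrd1 and Prdx1. For most of the 23 the largest change was in ONC-S. Among stress genes that rose, the adjusted p was 0.00353 for Atf3, 0.0124 for Atf4, 0.0247 for Creb5, 0.0111 for Ddit3, 0.035 for Sesn2, 0.0136 for Srxn1 and 0.00247 for Herpud1. For the amino acid carriers and tRNA synthetases it was 0.000166 for Slc7a1, 0.000772 for Slc7a5, 0.00101 for Cars, 0.00963 for Gars and 0.00232 for Yars. For genes that fell it was 3.9e-05 for Arr3, 0.000222 for Gria2, 0.00683 for Grm6, 0.00618 for Kcnc2, 0.0081 for Scn1a and 0.0457 for Tubb2a. Sag, with 0.40 in ONC-S and 0.01 in ONC, had 0.00276, and Fkbp5, with 1.41 in ONC-S and -0.02 in ONC, had 0.00413.

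The exceptions were Arid5a, with its largest change in ONC (1.45, adjusted p = 0.0385), and Stmn4, with its largest in ONC-J (1.47, adjusted p = 0.0259). Slc6a13 was higher than WT in ONC-J and lower in the other injured groups, by signs of the log2 fold change (adjusted p = 2.08e-05), and it is the 1 gene of these that also differed without ONC-S (adjusted p = 0.0126).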

How the results depend on the processing

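The pooled comparison had 1459 called and 1421 core genes. These counts were 629 and 629 in the 2-group design, 780 and 777 without ONC-S, 758 and 750 without WT replicate 1 and ONC replicate 2 together (chosen after seeing the data), and 837 and 824 on log2(FPKM + 1) with no filter. Core genes numbered 748 when all injured libraries had to lie outside WT, 262 with at least 0.5 on the log2 scale in each group, and 739 when core status was also asked without ONC-S (added after seeing the data). The strict core of 232 genes was 398 with no filter on low counts and 134 on log2(FPKM + 1) with no filter. Leaving out 1 library at a time gave 710 to 1612 called, 702 to 1563 core, 167 to 262 strict core genes, and 1219 to 2500 genes that differed among injured groups. Without ONC-S that last count was 7. The causes of these shifts were not tested, beyond the fewer libraries in each fit.

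The methods describe repeats of the experiment, but the labels do not say that a replicate number marks a repeat, so the libraries were not treated as paired. Of 30 same-numbered pairs, 3 correlated above 0.1 (range -0.091 to 0.182, median 0.0265), other pairs had a median of -0.018, and 8 of 15 libraries correlated best with their own number. With the replicate number as a block, 1723 genes were called, 1665 core, 257 strict core and 2939 different among injured groups. Directions turned for 13 genes when 1 library or group was left out. With each library left out in turn, the log2 fold change ran from -7.39 to 1.45 for Cryaa, -4.97 to 0.51 for Crybb3, -7.00 to 2.57 for Cryba1, -6.66 to 1.42 for Cryba2, -6.55 to 1.72 for Crygs, -6.70 to 2.67 for Crybb2, -1.83 to 0.02 for Hbb-bs, -1.44 to 0.31 for Hba-a1 and -1.18 to 1.07 for Hba-a2, with the positive end without WT replicate 1 in each. It ran from -0.15 to 0.01 (without WT replicate 2) for Vsx1, and from -0.13 to 0.39 for Ttr and -0.08 to 0.40 for Slc16a8, with the negative end without WT replicate 3. Tyr had 0.14 without ONC-S. All comparisons rest on the same 3 WT libraries.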
